A study of Mus musculus with 6 samples.

Results

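The receptors of the bone morphogenetic protein (BMP), activin and transforming growth factor beta (TGF-beta) ligands were followed in luminal uterine epithelium of mice in which the BMP receptor gene Alk3 was targeted for deletion. Alk3 is another name for Bmpr1a. A probe counted as a receptor probe when the symbol or a synonym in its file was Bmpr1a, Bmpr1b, Bmpr2, Acvr1, Acvr1b, Acvr2a, Acvr2b, Tgfbr1, Tgfbr2 or Tgfbr3. This gave 25 probes for 10 genes, of 28870 genes named on the array. RNA came from 3 samples of Alk3 conditional knockout mice (CKO, arrays D, E and F) and 3 samples of Control mice (arrays A, B and C), all taken at 3.5 days post coitum and hybridised to a single Illumina mouse bead chip with 1 array a sample. CKO mice carried Alk3flox/flox with Pgrcre/+, a Cre knock-in at the progesterone receptor locus. The loxP sites lie around exon 2, which codes for part of the domain outside the cell. The mice of both groups were of a mixed C57BL/6J and 129S5/SvEvBrd background. The labels do not give the alleles that Control mice carried, the way the epithelium was isolated, or whether the arrays of a group are different animals. The p-values therefore describe the spread among these 6 samples and no more. CKO arrays held chip positions D to F and Control arrays A to C, and a position effect cannot be told apart from the group.

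Ligands of this family bring together type I and type II receptors, which are kinases that span the membrane. The type II receptor phosphorylates the type I receptor, which then phosphorylates SMAD proteins that enter the nucleus. Bmpr1a, Bmpr1b and Acvr1 are type I receptors that pass BMP signals to SMAD1, SMAD5 and SMAD9, whereas Acvr1b and Tgfbr1 pass activin and TGF-beta signals to SMAD2 and SMAD3. In the uterus the progesterone receptor is made in epithelium, stroma and muscle, so Pgr-driven Cre can act in all of them. The comparison of CKO with Control asked whether other type I or type II receptors were more abundant where Alk3 had been targeted.

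Arrays were of like quality by the measures in the files. Medians of the raw signal ran from 79.7 to 82.1 on CKO arrays and from 82.4 to 87.6 on Control arrays, with a median of 39 to 42 beads a probe. Array E correlated least with the other arrays, at a mean of 0.936 over all genes tested, against 0.953 to 0.970 for the other arrays. Of 9 epithelial markers 8 were measured, and all 8 were above background on all 6 arrays. Epcam, an epithelial adhesion molecule, had a single probe that was above background on 0 arrays, and the luminal marker Calb1 likewise. Stromal markers were also detected, with 8 of 11 measured and 5 above background on every array. Of the 8 measured, 6 were higher and 2 lower in CKO, and 0 passed the test. Thy1 was higher in CKO by 1.08 on the log2 scale. Col1a1, above background on 2 CKO arrays and 1 Control array, was higher by 1.23. The 2 lower markers were Dcn (-0.15) and Lum (-0.27). The mean deviation of the 8 from the average array, in log2 units, was 0.98, 0.47 and -0.76 on CKO arrays D, E and F. On Control arrays A, B and C it was -0.31, -0.30 and -0.07. Cell number and RNA per cell cannot be told apart in such bulk samples.

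No receptor gene passed the test in either direction. All 10 genes had at least 1 probe above background on 3 or more arrays, and with limma 0 of the 10 had an adjusted p under 0.05, where 0.0168% of the 11940 genes tested did. An unadjusted p under 0.05 was reached by 1 receptor, Bmpr1a itself, where 4.72% of all genes reached it. Counted by probe, 0 of the 13 receptor probes above background on at least 3 arrays passed, where 0.0174% of 17291 such probes did, and 1 had an unadjusted p under 0.05, where 4.55% did. The sign of the difference was positive for 3 receptors and negative for 7, with a median log2 difference of -0.12 over the 10 and of -0.01 over all genes tested. Every CKO array was lower than every Control array for 2 receptors, Bmpr1a and Acvr2b, where 5% of all genes showed this. By probe it was 2 of 13, where 4.94% of probes did. The opposite arrangement was seen for 0 receptors, where 5.64% of all genes showed it. Groups that did not overlap, in either order, were found for 10.6% of genes and 10.3% of probes.

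**Figure D1:**
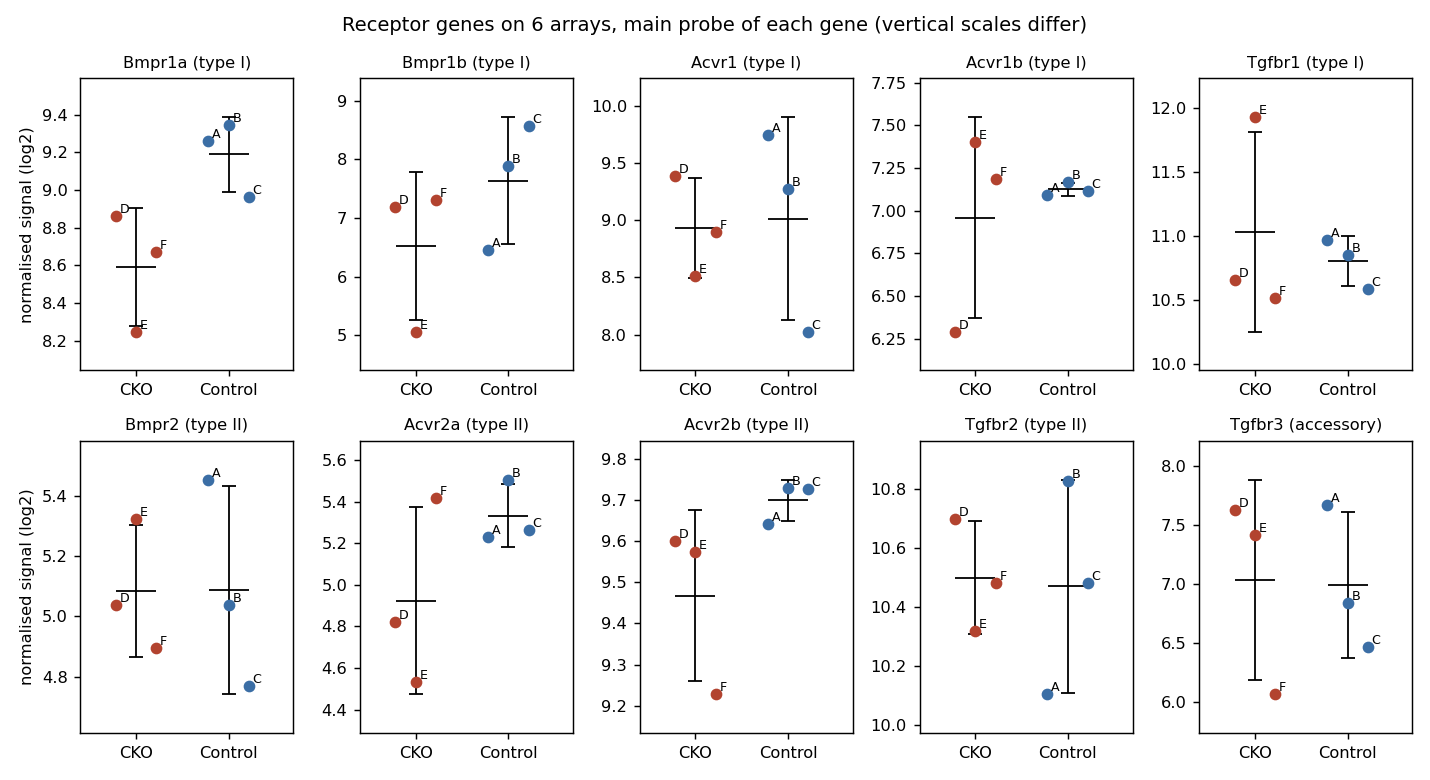
Normalised log2 signal (vertical axis, scales differ between panels) of the main probe of each receptor gene on CKO arrays D to F and Control arrays A to C. Points are arrays, and the bar and whiskers are the group mean and SD (n = 3). All CKO points lie below all Control points for Bmpr1a and Acvr2b, and the groups overlap for the other 8 genes.

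Bmpr1a, the targeted gene, was read by 2 probes. On the main probe, the raw signal with its standard error over beads was 484.4 ± 33.4, 372.9 ± 17.5 and 440.3 ± 20.5 on CKO arrays D, E and F, against 733.1 ± 48.3, 768.2 ± 46.6 and 544.9 ± 26.5 on Control arrays A, B and C. After normalisation this was a log2 signal of 8.86, 8.25 and 8.67 on CKO arrays D, E and F, against 9.26, 9.34 and 8.97 on Control arrays A, B and C. Array E was the lowest of the CKO arrays and C the lowest of the Control arrays, and the groups did not overlap.

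The Bmpr1a means were 8.59 ± 0.31 in CKO and 9.19 ± 0.20 in Control (SD, n = 3 each), a log2 difference of -0.60 (SE 0.22, 95% confidence interval -1.12 to -0.07). The CKO signal was thus 0.661 times the Control signal, with an interval of 0.459 to 0.952. Bmpr1a ranked 349 of 11940 genes by p, with a limma p of 0.0316 and an adjusted p of 0.976, and so did not pass. The exact two-sided permutation p was 0.1, the smallest that 3 against 3 arrays can give. With single arrays left out the difference ran from -0.73 without D to -0.43 without E. The interval spanned 0, with limma p-values of 0.0587 to 0.103, without A, B, E or F, and also with the stromal marker mean as a covariate (-1.25 to 0.06, p 0.0678).

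The other Bmpr1a probe had log2 signals of 5.60, 6.88 and 6.70 on CKO arrays D, E and F, against 6.60, 7.10 and 7.02 on Control arrays A, B and C. Here the groups overlapped, and the low CKO array was D rather than E. Its difference was -0.51 (SE 0.36, adjusted p 0.985 by limma over all probes; exact permutation p 0.3), and it was -0.11 without array D. The probe sequences were not used here, so whether either probe lies in the exon between the loxP sites was not determined, and a probe outside that exon would not check the deletion.

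Of the other BMP type I receptors, Bmpr1b showed the widest spread over arrays among the 10 genes. Bmpr1b, also called Alk6, is the receptor most like Bmpr1a in sequence and shares its BMP ligands. It had log2 signals of 7.18, 5.06 and 7.31 on CKO arrays D, E and F, against 6.45, 7.89 and 8.57 on Control arrays A, B and C. Array E was not above background for this gene (detection p 0.0502), Control array A was below CKO arrays D and F, and the groups overlapped. The range of 3.51 log2 units over the 6 arrays was wider than that of 98.3% of all genes tested.

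The Bmpr1b means were 6.52 ± 1.26 in CKO and 7.64 ± 1.08 in Control (SD, n = 3 each), and the log2 difference was -1.12 (SE 0.76, 95% confidence interval -2.94 to 0.69, adjusted p 0.976 by limma). It was -0.40 without array E and -1.71 without A. A further Bmpr1b probe gave 6.92, 4.47 and 6.86 on CKO arrays D, E and F, against 5.95, 7.29 and 8.47 on Control arrays A, B and C, a difference of -1.15 (SE 0.85). Both probes thus placed E lowest, A next and C highest. On E, glandular epithelial markers had a mean deviation of 1.30 and endothelial markers of 0.97. Of the 7 endothelial markers measured, 1 was above background on all arrays. Tek, Emcn, Cdh5 and Vwf were highest on E. Cldn5, Esam and Kdr were lower on E (5.22, 8.89 and 5.49) than on D (6.39, 9.26 and 5.98). The 5 glandular markers measured did not move together. Prss29 (10.53) was highest on E, and Spink1 (11.40) was lower than on A alone. Sox9 was at 10.43, 10.78 and 10.20 on CKO arrays D, E and F, against 9.49, 9.71 and 7.46 on Control arrays A, B and C. Its CKO arrays all lay above its Control arrays, as for 5.64% of all genes, and its adjusted p was 0.976 by limma. Cxcl15 (6.89) was lower on E than on all arrays but D, and Wfdc2 (14.53) was much the same on all arrays. The part of glandular and endothelial cells in the Bmpr1b value was not tested.

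**Figure D2:**
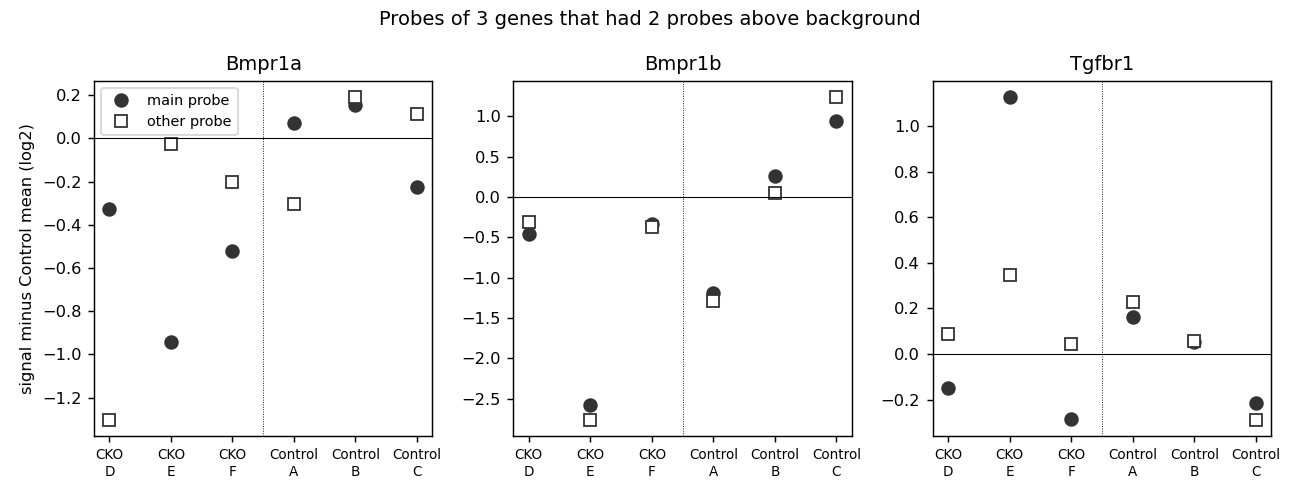
Log2 signal minus the probe's Control mean (vertical axis) on each array for the 3 receptor genes with 2 probes above background, with CKO arrays left of the dotted line and Control arrays right of it. The probes of Bmpr1b follow each other across arrays, with differences of -1.12 and -1.15, whereas the low CKO array of Bmpr1a is E for the main probe and D for the other.

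Acvr1, or Alk2, is the remaining BMP type I receptor. It had a single probe, with log2 signals of 9.38, 8.51 and 8.90 on CKO arrays D, E and F, against 9.74, 9.27 and 8.03 on Control arrays A, B and C. The CKO values lay within the Control range, which C and A spanned. The difference was -0.08 (SE 0.47, 95% confidence interval -1.20 to 1.03, adjusted p 0.985 by limma). The sign turned without A (0.28), B (0.05) or E (0.13), so the data gave no direction for this gene.

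Neither of the activin and TGF-beta type I receptors passed the test. Acvr1b, or Alk4, the activin type I receptor, was at 6.29, 7.40 and 7.19 on CKO arrays D, E and F, against 7.09, 7.17 and 7.12 on Control arrays A, B and C. The Control arrays agreed within 0.04 (SD), and CKO arrays lay on either side of them, with D low and E high. The log2 difference was -0.17 (SE 0.30, 95% confidence interval -0.89 to 0.56), and it was 0.17 without D. The adjusted p of Acvr1b was 0.977 by limma.

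Tgfbr1, or Alk5, the TGF-beta type I receptor, was at 10.65, 11.93 and 10.52 on CKO arrays D, E and F, against 10.97, 10.85 and 10.59 on Control arrays A, B and C. Array E was higher than all others, while F was the lowest of the 6 and D lay between Controls. The difference was 0.23 (SE 0.39, 95% confidence interval -0.70 to 1.16, adjusted p 0.977 by limma), and it was -0.22 without E. A dim further probe of Tgfbr1 also had its highest value on E, 6.13, against 5.87 and 5.83 on CKO arrays D and F and 6.01, 5.84 and 5.50 on Control arrays A, B and C. Its difference was 0.16 (SE 0.21), and 0.06 without E.

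Among type II receptors, Bmpr2, which pairs with the BMP type I receptors, was dim by the probes that carry its symbol. The main probe had log2 signals of 5.04, 5.32 and 4.89 on CKO arrays D, E and F, against 5.45, 5.04 and 4.77 on Control arrays A, B and C. It was above background on E, A and B, that is on 1 CKO and 2 Control arrays, and the groups overlapped. The means were 5.08 ± 0.22 in CKO and 5.09 ± 0.35 in Control (SD, n = 3 each), with a difference of -0.0017 (SE 0.23, 95% confidence interval -0.56 to 0.56). The sign turned without D (0.02) or F (0.10), and without A, B or E the gene did not meet the minimum of 3 arrays above background.

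A further probe bears the older clone name 2610024H22Rik, which RefSeq lists as a synonym of Bmpr2, and was well above background on all arrays. It was not counted among the 25. Its log2 signals were 10.72, 10.65 and 10.52 on CKO arrays D, E and F, against 10.65, 10.93 and 10.52 on Control arrays A, B and C. The groups overlapped, and the difference was -0.07 (SE 0.18, 95% confidence interval -0.51 to 0.37, adjusted p 0.985 by limma over all probes), or 0.04 without B. Whether this probe reads the Bmpr2 transcript was not tested.

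Acvr2b and Acvr2a are the type II receptors of activins and also bind several BMPs. Acvr2b had log2 signals of 9.60, 9.57 and 9.23 on CKO arrays D, E and F, against 9.64, 9.73 and 9.73 on Control arrays A, B and C. The groups did not overlap, but the gap between D and A was small and F alone lay well below the rest. The means were 9.47 ± 0.21 in CKO and 9.70 ± 0.05 in Control (SD, n = 3 each), a difference of -0.23 (SE 0.17, 95% confidence interval -0.64 to 0.18, adjusted p 0.976 by limma). It was -0.11 without F and -0.30 without D. With array weights it was -0.42 (95% confidence interval -0.72 to -0.11, limma p 0.0148, adjusted p 0.301).

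Acvr2a was near background, at 4.82, 4.53 and 5.42 on CKO arrays D, E and F, against 5.23, 5.51 and 5.26 on Control arrays A, B and C. It was above background on all 3 Control arrays and on 1 CKO array, F, so signal over background limits its difference of -0.41 (SE 0.26, 95% confidence interval -1.02 to 0.21, adjusted p 0.976 by limma). The CKO arrays D and E were low, F lay among the Controls, and the difference was -0.66 without F (limma p 0.0224, adjusted p 0.835) and -0.21 without E.

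Tgfbr2, the TGF-beta type II receptor, had log2 signals of 10.70, 10.32 and 10.48 on CKO arrays D, E and F, against 10.10, 10.83 and 10.48 on Control arrays A, B and C. The CKO values lay within the Control range. The means were 10.50 ± 0.19 in CKO and 10.47 ± 0.36 in Control (SD, n = 3 each), with a difference of 0.03 (SE 0.23, 95% confidence interval -0.53 to 0.59, adjusted p 0.987 by limma). It was -0.15 without A and -0.07 without D.

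Tgfbr3, or betaglycan, is an accessory receptor without a kinase that presents TGF-beta and inhibin to the signalling receptors. Its log2 signals were 7.62, 7.42 and 6.06 on CKO arrays D, E and F, against 7.67, 6.83 and 6.47 on Control arrays A, B and C. D, E and A were high and F was the lowest, so the groups overlapped. The difference was 0.05 (SE 0.49, 95% confidence interval -1.13 to 1.22, adjusted p 0.990 by limma). It turned negative without B (-0.03), C (-0.22), D (-0.25) or E (-0.15). It was also negative under median scaling (-0.0014) and with the stromal marker mean as a covariate (-0.34). Smooth muscle markers, of which 4 of 8 were measured, had mean deviations of 0.31, 0.61 and -1.01 on CKO arrays D, E and F, against 0.53, -0.12 and -0.33 on Control arrays A, B and C. Acta2, Des and Smtn were above background on all 6 arrays and Mylk on 5. Acta2 was highest on Control array A (10.98) and on CKO array E (9.61). Myh11, Tagln and Cnn1, which define mature smooth muscle, were above background on 0 arrays. The part of smooth muscle cells in the Tgfbr3 values was not tested.

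The remaining 12 receptor probes were above background on at most 1 array each and were not tested. Of the 12, only a probe of Tgfbr2 had groups that did not overlap. Such groups, in either order, were found for 10.3% of the probes above background on at least 3 arrays. This Tgfbr2 probe was at 4.90, 5.12 and 4.79 on CKO arrays D, E and F, against 4.79, 4.72 and 4.71 on Control arrays A, B and C. It was above background on array E alone, and the main Tgfbr2 probe did not show this order.

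**Figure D3:**
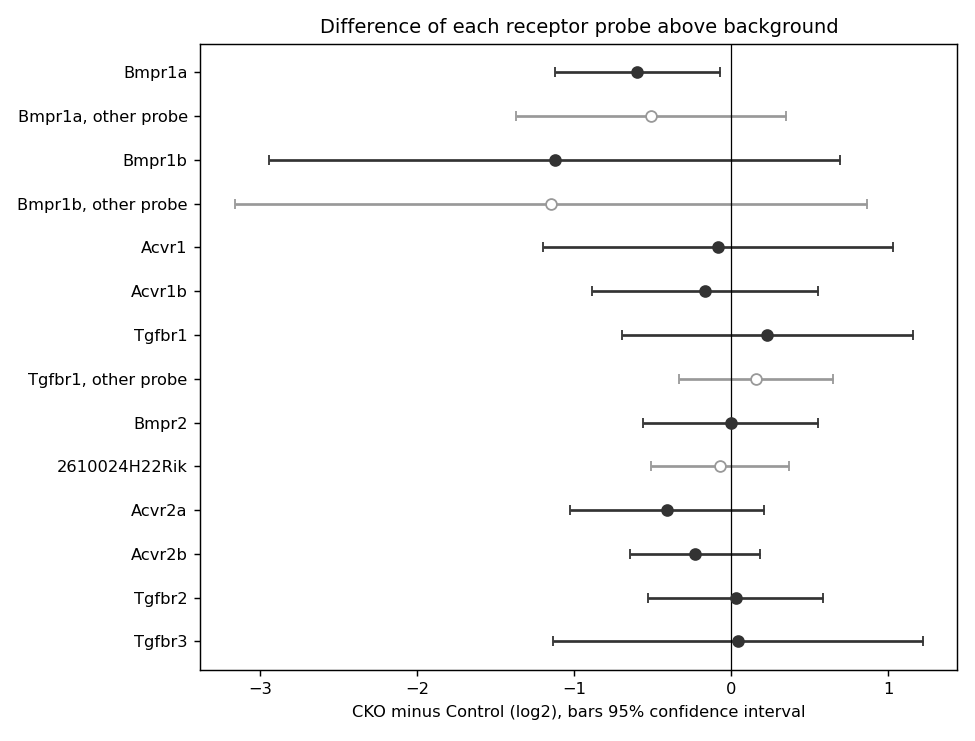
Log2 difference, CKO minus Control (horizontal axis), of each receptor probe above background on at least 3 arrays, with 95% confidence intervals from limma. Filled points are the main probe of a gene from the fit over genes, and open points are other probes, 2610024H22Rik included, from the fit over probes. The interval of the main Bmpr1a probe, -1.12 to -0.07, lies below 0 with all 6 arrays but spans 0 without A, B, E or F, and those of the 9 other genes span 0.

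The intervals bound how much higher another receptor could have been in CKO. The upper bounds for the type II receptors were 1.13 times the Control signal for Acvr2b, 1.15 for Acvr2a, 1.47 for Bmpr2 and 1.5 for Tgfbr2. For the type I receptors they were 1.47 times for Acvr1b, 1.62 for Bmpr1b, 2.05 for Acvr1 and 2.23 for Tgfbr1, and for Tgfbr3 2.33. These bounds moved with single arrays. On the log2 scale the upper limit of Bmpr1b was 0.69 with all arrays, 1.34 without C, 1.30 without B, 1.09 without E and 0.08 without A. That of Acvr1 was 1.03 with all arrays, 1.44 without B and 0.23 without C. That of Tgfbr1 was 1.16 with all arrays, 1.53 without D and 0.26 without E. For Tgfbr3 it was 1.22 with all arrays, 1.62 without A and 1.10 without D. For Acvr1b it was 0.56 with all arrays, 0.79 without B and 0.32 without E. Type II receptors moved too. The limit of Tgfbr2 was 0.59 with all arrays, 0.80 without B and 0.41 without A. For Bmpr2 it was 0.56 with all arrays, 0.78 without F and 0.44 without C. For Acvr2a it was 0.21 with all arrays, 0.45 without B and -0.14 without F. For Acvr2b it was 0.18 with all arrays, 0.34 without B and 0.15 without D. Leaving out an array could thus raise or lower a bound. These ratios are of signals with an added offset, which draws those of dim probes such as Acvr2a and Bmpr2 towards 1. The intervals are for single genes and were not widened for the number of receptors.

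**Figure D4:**
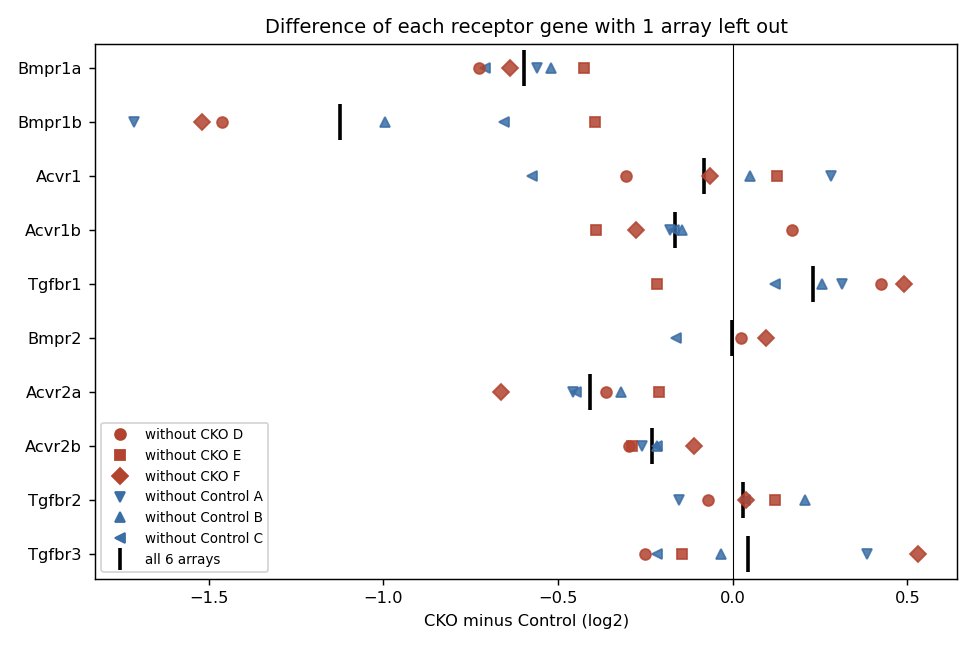
Log2 difference, CKO minus Control (horizontal axis), of each receptor gene with all 6 arrays (black bars) and with each array left out in turn (markers, red for a CKO array and blue for a Control array). Bmpr1a stays between -0.73 and -0.43, Bmpr1b moves between -1.71 and -0.40 and stays negative, and Acvr1, Acvr1b, Tgfbr1, Bmpr2, Tgfbr2 and Tgfbr3 change sign.

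Further receptors of the family were not detected. Acvrl1 (Alk1, known from endothelium), Acvr1c (Alk7) and Amhr2, the receptor of anti-Mullerian hormone, did not meet the detection minimum of 3 arrays. The brightest probe was above background on 0 arrays for Acvrl1 and Acvr1c and on 2 Control arrays for Amhr2. Among 10 co-receptors and receptor-binding proteins 6 were measured, 4 with a positive and 2 with a negative difference, and 0 passed. Pmepa1, a transmembrane inhibitor of TGF-beta signalling, differed by 0.45 (SE 0.29) and Rgma, a BMP co-receptor, by 0.24 (SE 0.53). Fkbp1a, which binds type I receptors and holds them inactive, differed by 0.06 (SE 0.37), with its highest log2 signal, 12.71, on CKO array E. Rgmb, another BMP co-receptor, differed by -0.33 (SE 0.35), Smurf1, a ubiquitin ligase of receptors and SMADs, by 0.17 (SE 0.23) and endoglin (Eng) by -0.03 (SE 0.26). Bambi, a receptor-like inhibitor without a kinase, was above background on 0 arrays.

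The ligands, transducers and targets around the receptors did not pass either. Of 14 BMP and GDF ligands 2 were measured, Bmp4 at 0.16 (SE 0.55) and Bmp5 at -0.24 (SE 0.22). Of 12 activin, nodal and TGF-beta ligands 2 were measured, Tgfb1 at 0.04 (SE 0.28) and Tgfb2 at -0.03 (SE 0.26). Of 8 SMADs 5 were measured, 2 with positive and 3 with negative differences, among them the inhibitory Smad6 at -0.42 (SE 0.27) and Smad1 at 0.28 (SE 0.23). Of 14 extracellular antagonists 4 were measured, 2 positive and 2 negative, with Chrd at 0.96 (SE 0.42).

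Of 10 genes known to be induced by BMP signalling 7 were measured, 6 with a negative difference, and 0 passed over all genes. Their median difference was -0.96, against -0.01 over all genes tested, of which 48.3% had a positive difference. The mean deviation of the 7 from the average array was -0.38, -0.65 and -0.17 on CKO arrays D, E and F. On Control arrays A, B and C it was -0.40, 0.43 and 1.16, so Control array A lay among the CKO arrays. Id2 differed by -0.96 (SE 0.27). Id4 was above background on 0 CKO arrays and 3 Control arrays, so the ratio of its group means has only a bound. That bound was at least 2.31-fold lower in CKO and leaves out sampling error. The limma interval for Id4, with CKO signals at background, was -2.65 to -0.58 on the log2 scale. Id2 and Id4 both encode inhibitors of basic helix-loop-helix factors, and both had an adjusted p of 0.976 by limma. The list was chosen with these results known and is no independent evidence of a direction.

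The genes whose signal most resembled that of the main Bmpr1a probe over the 6 arrays were Gpr158, Nenf, E2f5, Tmem44 and Prkcd. They were the 5 with the highest Pearson correlation, 0.983 to 0.975, among 8447 named genes above background on all arrays, of which 108 exceeded 0.9. These correlations are over 6 points that share a chip and its normalisation, and were picked as the highest of many. Tmem44 had the largest difference of the 5, at 7.11, 5.78 and 6.81 on CKO arrays D, E and F, against 7.63, 8.33 and 7.48 on Control arrays A, B and C. Its log2 difference was -1.25 (SE 0.40, adjusted p 0.976 by limma). Its CKO arrays all lay below its Control arrays, as for 5% of all genes. Picking genes by their correlation with Bmpr1a favours this order.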

How the data were processed

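Each deposited array table holds, per the file headers, the mean intensity over beads of 45281 probes with its standard error, bead number and detection p-value. Array medians differ and no value is near 0, so these were taken as raw. A table of processed intensity values that the authors deposited has values below 0 and equal quartiles on all arrays, as after background subtraction and quantile normalisation on a linear scale. No source used here names the software.

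The raw intensities went through neqc (limma 3.58.1, R 4.3.3), which applies normexp using controls inferred from the detection p-values, adds an offset of 16, quantile-normalises and takes log2. A detection p-value under 0.05 counted as above background, and 17291 probes above background on at least 3 arrays were kept. RefSeq tables of GRCm38.p6 named 29370 probes by accession and 6962 by symbol or synonym, 8931 kept the file's name and 18 had none. The kept probe with the highest mean stood for its gene and is called its main probe. Differences were tested with limma (lmFit, eBayes; two-sided) and adjusted by the Benjamini-Hochberg method over 11940 genes, or over 17291 probes for other probes. A gene below background in a whole group has only a bound on the ratio of group means, without sampling error. It was set from the higher of its own signal and the lowest signal above background on each array.

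The receptors, the gene and marker lists, the tests and the rule for named genes were chosen with earlier results of these data known. The rule took every receptor and its probes, every measured co-receptor, the 2 members with the smallest p in each further pathway or marker list, and the 5 genes most correlated with Bmpr1a. A gene that the rule took is not reported here. Markers and receptors named as not detected, and markers named beyond the rule, were named after their values were seen. The alternatives were other background corrections, scalings, filters and probe rules, the deposited values, a variance trend, array weights, a stroma covariate and leaving out each array. Steps were tested on simulated data. The number of arrays limits the precision.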

Additional observations from a re-analysis of the deposited data

How the results depend on the processing

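All 17 alternatives left 0 receptors called in either direction, and the smallest adjusted p of any receptor was 0.215, for Bmpr1a with array weights (unadjusted p 0.0041). Bmpr1a stayed negative under all 17, from -0.63 to -0.53 under other processing and from -0.73 to -0.43 with single arrays left out. Bmpr1b, Acvr2a and Acvr2b also kept their negative sign wherever they were tested, Bmpr1b from -1.71 to -0.40, Acvr2a from -0.66 to -0.16 and Acvr2b from -0.42 to -0.11. An unadjusted p under 0.05 was reached by 2 receptors with array weights, Bmpr1a and Acvr2b, and by Acvr2a alone without F. It was reached by 0 with the stroma covariate and without A, B or E. The strict filter, detection p under 0.01 on all arrays, removed Bmpr1b, Bmpr2 and Acvr2a. Bmpr2 became 0.023 in the deposited values, 0.00024 after cyclic loess, 0.0022 when the background was not corrected and 0.0028 after normexp that used no controls, and ran from -0.16 to 0.095 with single arrays left out. Array weights turned Tgfbr1 to -0.17, Tgfbr2 to -0.19 and Tgfbr3 to -0.54. The stroma covariate turned Acvr1b to 0.0077, Tgfbr2 to -0.0067 and Tgfbr3 to -0.34, and median scaling Tgfbr3 to -0.0014. With single arrays left out Acvr1 ran from -0.57 to 0.28, Acvr1b from -0.39 to 0.17, Tgfbr1 from -0.22 to 0.49, Tgfbr2 from -0.15 to 0.21, Tgfbr3 from -0.25 to 0.53 and the 2610024H22Rik probe from -0.16 to 0.045. The last of these, and the other probes of Bmpr1a, Bmpr1b and Tgfbr1, were run after seeing the data. Over all genes, 2 were higher in CKO and 0 lower. Lower genes stayed at 0, and higher genes were 1 in the deposited values and after cyclic loess, median scaling or either other background setting. They were 0 with no filter, the strict filter and the stroma covariate and 5 with array weights. Leaving out an array gave 0 to 1. The cause of these changes was not tested. No paired analysis was possible because the groups share no replicate labels. Signal over background limits Acvr2a, Bmpr2 and Bmpr1b on array E.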
